A study of Danio rerio with 52 samples.

Results

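Cytosolic ribosomal protein genes were taken as the genes with a symbol that starts with rpl or rps and names a ribosomal protein, the kinase genes of the rps6k family left out. There were 70 such genes among 19260 genes measured, 40 of the large and 30 of the small ribosomal subunit, each represented by its brightest probe set. For 6 further genes, rpl4, rpl5a, rpl12, rpl22, rpl32 and rps23, the array lists only probe sets shared with another gene, and these were not analysed here.

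The data were 52 expression arrays of cells that had been sorted by fluorescence from the skins of zebrafish larvae 4 days old. The skin carries the lateral line, whose sense organs, the neuromasts, have hair cells that detect water flow, with support cells around them and mantle cells at the border. From untreated larvae came 6 samples of non-fluorescent cells, 5 of mantle cells positive for mCherry, 4 of mantle cells positive for both mCherry and GFP (double-positive) and 2 of hair cells positive for GFP. The hair cells came from the alpl:mCherry;pou4f3:GFP line, in which GFP marks hair cells, and the double-positive cells from a line that carries alpl:mCherry with Et20, in which GFP marks most mantle cells. The alpl:mCherry transgene, which marks mantle cells, was thus carried by both lines named, and the sample labels do not name the line of the other populations. Other larvae were exposed to 5 µM copper sulfate, which kills hair cells, for 1 h. From these, non-fluorescent cells were sorted 1 h (n = 7), 3 h, 5 h and 11 h (n = 4 each) later, and mCherry+ mantle cells at the same times (n = 4 each). Each sample came from about 50 skins, and hair cells and double-positive cells were pooled from several sorts.

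A cytosolic ribosome is built in the nucleolus and cytoplasm from ribosomal RNA and a set of ribosomal proteins that are needed in equal numbers, and the genes for these proteins are usually expressed together at high levels. In mammals their mRNAs begin with a pyrimidine tract through which mTOR signalling controls their translation, and Myc raises their transcription. Hair cells no longer divide once they have formed, whereas skin epithelium of a larva is still growing.

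Values are log2 signals, differences are on that scale, and a gene was called where limma gave an adjusted p under 0.05. The median of the 70 genes lay between 10.45 and 10.59 in the untreated non-fluorescent arrays, between 10.37 and 10.63 in the mCherry+ mantle arrays and between 10.39 and 10.50 in the double-positive arrays. In the hair arrays it was 9.89 and 9.83. Both hair arrays thus lay below every other array of the study, the copper-treated ones included, which spanned 10.47 to 10.87. The median of all 19260 genes was 4.75 and 4.76 in the hair arrays and 4.67 to 4.92 in the other untreated arrays.

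**Figure D1:**
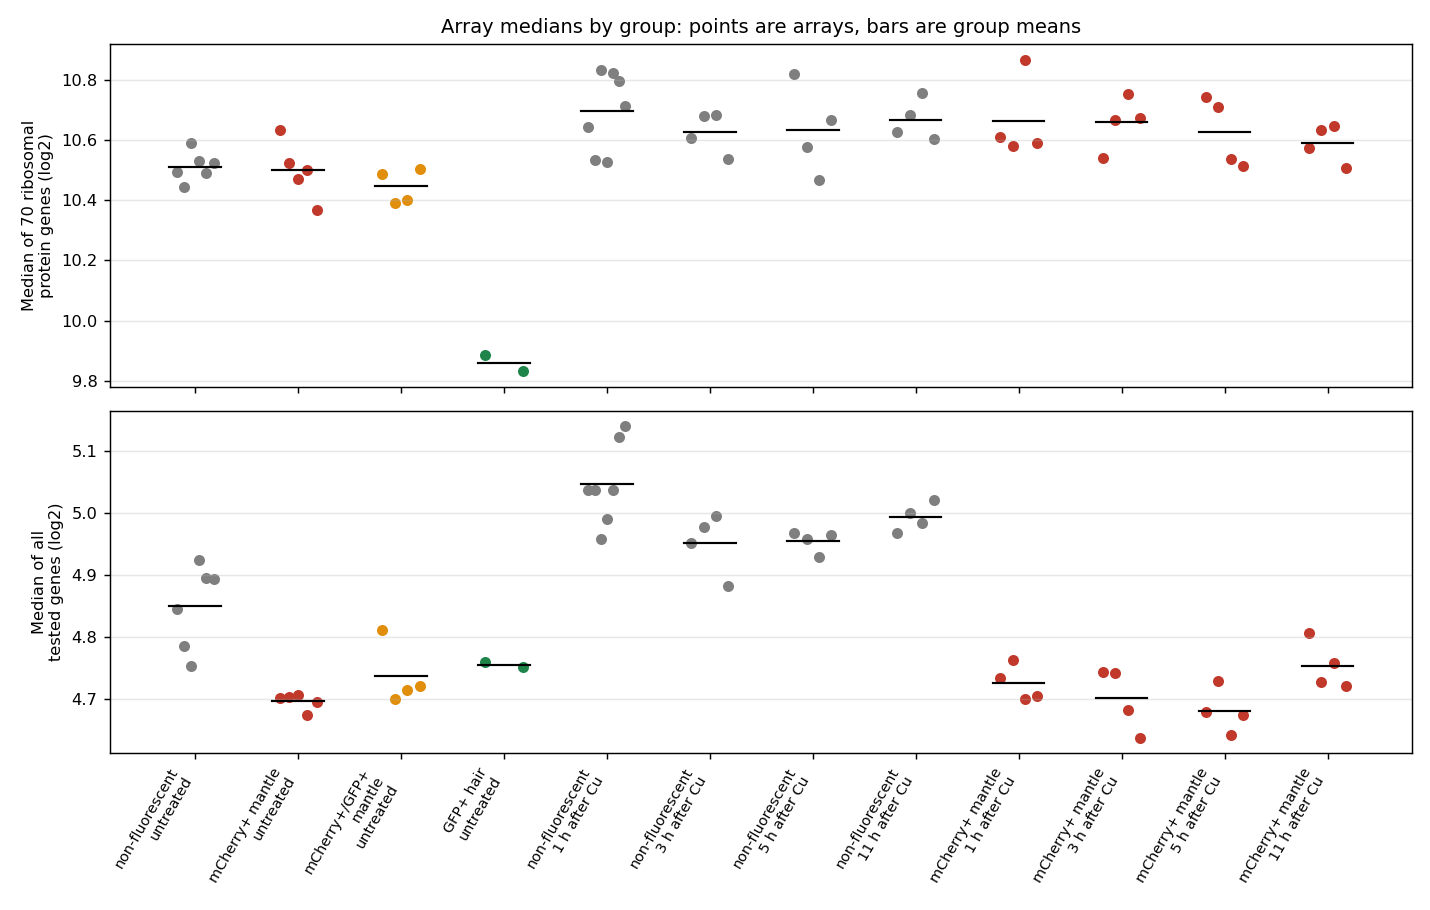
Median log2 signal of the 70 ribosomal protein genes (top) and of all 19260 genes (bottom) in each of the 52 arrays, by group; points are arrays and bars are group means. The 2 hair arrays sit at 9.89 and 9.83, below every other array in the top panel and within the range of the others in the bottom panel.

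On the deposited values hair cells expressed most ribosomal protein genes at a lower level than each of the other untreated populations. Against non-fluorescent cells, 60 of the 70 genes were lower and 1 was higher (85.7% lower, against 20.8% of all genes tested lower and 15.5% higher), with a median difference of -0.66 and a middle range of -0.83 to -0.50. At that median a hair cell array had 63.3% of the signal of non-fluorescent cells. Against mCherry+ mantle cells 55 genes were lower and 1 higher (78.6% lower, against 18% of all genes lower and 17.6% higher), with a median of -0.64. Against double-positive mantle cells 41 were lower and 1 higher (58.6% lower, against 18.2% of all genes lower and 17.2% higher), with a median of -0.49. The median over all genes was -0.06, -0.03 and 0.01 in these comparisons, in the same order.

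Both subunits took part. Of the 40 large-subunit genes 33 were lower than in non-fluorescent cells, with a median of -0.68, and of the 30 small-subunit genes 27 were lower, with a median of -0.62. In 53 of the 70 genes both hair arrays lay below all 15 other untreated arrays, which held for 13% of all genes, and in 50 they lay below all 50 other arrays of the study, against 7.9% of all genes. A set of 39 genes was called lower in hair cells than in each of the 3 other populations, against 8.97% of all genes. The samples are bulk RNA, in which fewer cells of a type and less RNA per cell cannot be told apart. The hair group has 2 arrays, and leaving out either leaves 1. Without hair replicate 2 fewer of the 70 genes were called in each comparison, and without hair replicate 1 fewer against both mantle populations. How many of all genes were called in those fits was not counted. Without replicate 2 the medians of the 70 genes were -0.63, -0.59 and -0.46 against non-fluorescent, mCherry+ and double-positive cells. Without replicate 1 they were -0.66 and -0.54 against mCherry+ and double-positive cells.

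The shift depended on how the arrays were scaled. With the distribution of every array made equal by quantile normalization, 43, 21 and 11 genes were lower than in non-fluorescent, mCherry+ and double-positive cells. These were 61.4%, 30% and 15.7% of the 70 genes, where 19.7%, 18% and 17.9% of all genes were lower. Against double-positive cells the share thus lay below that of all genes. The medians were -0.52, -0.37 and -0.22. Ribosomal protein genes are among the brightest on the array, 65 of the 70 lying in the brightest 10% of genes, and other bright genes were lower in hair cells as well. The 1861 other genes of that brightest 10%, a set looked at after the data had been seen, had medians of -0.42, -0.26 and -0.36 against the same populations on the deposited values. Of the 1861, 733, 695 and 716 were called lower and 166, 263 and 251 higher on those values. After quantile normalization their medians were -0.44, -0.21 and -0.27, with 758, 675 and 658 lower and 199, 316 and 310 higher. Against mCherry+ and double-positive cells a smaller share of the ribosomal protein genes than of these bright genes was then lower. Against double-positive cells the median of the ribosomal protein genes then lay no lower than that of the other bright genes.

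**Figure D2:**
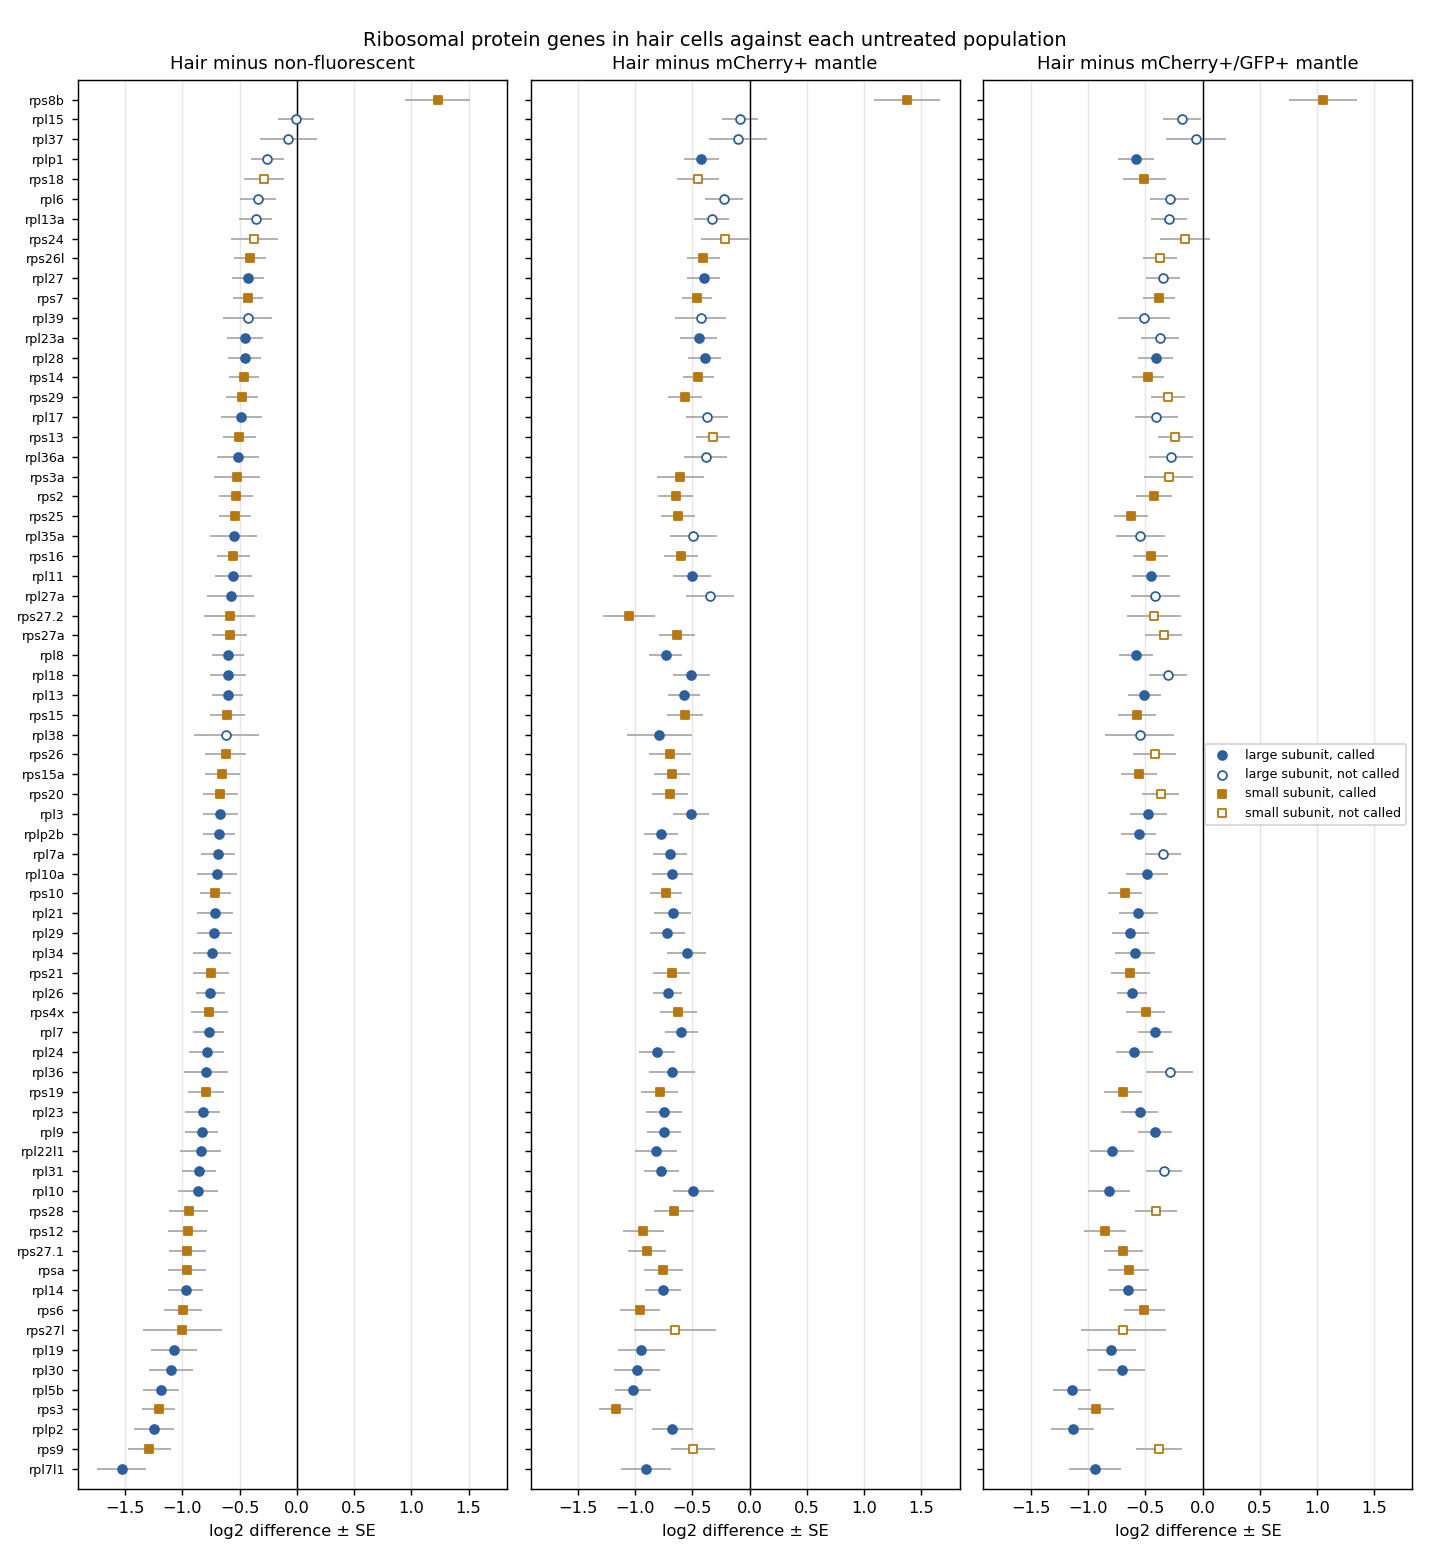
Difference between hair cells and each other untreated population for the 70 ribosomal protein genes on the log2 scale, with standard errors; filled symbols passed the adjusted p of 0.05, circles are large-subunit and squares small-subunit genes. Nearly all points lie left of 0 in each panel, 69 of 70 against non-fluorescent cells, and rps8b alone is called on the right.

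Of the 70 ribosomal protein genes, a group of 9 was lower in hair cells than in all 3 populations under each of 3 scalings. These scalings were the values as deposited, with array medians made equal and after quantile normalization. The same held for 7.88% of all genes, and whether the 9 of 70 exceed that share was not tested. The group comprised rps3, rps12, rpl5b, rpl8, rpl10, rpl19, rpl30, rpl22l1 and rpl7l1. For rps3, a small-subunit protein at the channel where mRNA enters the ribosome, the hair arrays read 10.65 and 10.54. The non-fluorescent arrays lay between 11.63 and 11.97 with a median of 11.80, the mCherry+ arrays read 11.77, 11.71, 11.81, 11.74 and 11.79, and the double-positive arrays 11.76, 11.38, 11.38 and 11.59. The hair arrays were thus apart from all others, and the difference from non-fluorescent cells was -1.21 ± 0.15 (SE, adjusted p = 2.5e-06), a 2.31-fold lower signal.

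The gene rpl5b encodes a large-subunit protein that, with Rpl11, joins the ribosome bound to a small ribosomal RNA, and that inhibits Mdm2 when it is free of the ribosome in mammals. It read 9.81 and 9.99 in hair cells. In non-fluorescent cells it lay between 10.97 and 11.19 with a median of 11.10, in mCherry+ mantle cells it read 10.97, 10.92, 11.04, 11.04 and 10.64, and in double-positive cells 11.18, 11.08, 10.77 and 11.13. No other untreated array came near the hair arrays. The differences from the 3 populations were -1.19 ± 0.16, -1.02 ± 0.16 and -1.14 ± 0.16. Its partner rpl11 was lower by a smaller amount, -0.56 ± 0.16 against non-fluorescent cells (adjusted p = 0.010), a call that quantile normalization ended (adjusted p = 0.21).

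Others of the group encode large-subunit proteins, and rps12 encodes a small-subunit protein. For rpl10, which is loaded in the last steps of large-subunit maturation, the hair arrays read 6.51 and 6.32 and the lowest array of any other untreated population 6.74. The differences were -0.87 ± 0.18, -0.49 ± 0.18 and -0.82 ± 0.19 from non-fluorescent, mCherry+ and double-positive cells. That from mCherry+ cells was not called without hair replicate 2. It was also not called with a block, described below, for untreated arrays that may share an earlier adjustment (adjusted p = 0.115). For rpl8, which lies beside the peptidyl transferase centre, they were -0.60 ± 0.14, -0.73 ± 0.14 and -0.58 ± 0.15. The large-subunit genes rpl19 and rpl30 differed by -1.07 ± 0.20 and -1.10 ± 0.19 from non-fluorescent cells, and the small-subunit gene rps12 by -0.95 ± 0.17. None of these genes overlapped between hair cells and the other untreated arrays.

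The largest difference from non-fluorescent cells was that of rpl7l1, a paralogue of rpl7 whose human counterpart acts in assembly of ribosomal precursors. The hair arrays read 4.93 and 4.59, the non-fluorescent arrays 5.96 to 6.52 with a median of 6.33, the mCherry+ arrays 5.73, 5.70, 5.53, 5.72 and 5.65, and the double-positive arrays 6.24, 5.27, 5.59 and 5.69. The hair arrays were lowest and the non-fluorescent arrays highest, apart from 1 double-positive array. The hair signal was 34.6% of that of non-fluorescent cells (-1.53 ± 0.21, adjusted p = 1.4e-05), and 53.4% and 52.2% of that of mCherry+ and double-positive cells. Its paralogue rpl7, a structural protein, differed from non-fluorescent cells by -0.77 ± 0.14.

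The acidic stalk protein gene rplp2, whose product helps recruit elongation factors to the ribosome, was spread across the populations. It read 8.96 and 8.98 in hair cells, 9.71, 9.58, 9.44, 9.68 and 9.83 in mCherry+ mantle cells, 10.33, 9.76, 10.10 and 10.23 in double-positive cells, and 10.06 to 10.52 with a median of 10.14 in non-fluorescent cells. Hair cells lay lowest, mCherry+ mantle cells lay below the non-fluorescent cells, and double-positive cells overlapped with both. The difference between hair and non-fluorescent cells was -1.25 ± 0.17 (adjusted p = 1.6e-05). Its paralogue rplp2b differed by -0.68 ± 0.14, and its stalk partner rplp1 by -0.26 ± 0.15, which was not called (adjusted p = 0.19).

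For rps9, a small-subunit protein that in yeast bears on the accuracy of decoding, hair cells were not alone. The hair arrays read 7.38 and 7.42, the mCherry+ arrays 7.88, 8.05, 7.77, 8.01 and 7.77, and the double-positive arrays 7.99, 7.94, 7.66 and 7.53. The non-fluorescent arrays lay between 8.47 and 9.18 with a median of 8.62, above all of these. Hair cells were lower than non-fluorescent cells by 1.29 ± 0.19 on the log2 scale (-1.29), but the differences of -0.50 ± 0.19 and -0.38 ± 0.20 from the mantle populations were not called (adjusted p = 0.052 and 0.15).

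The gene rps6 encodes the small-subunit protein that is phosphorylated by kinases downstream of mTOR. Hair arrays read 10.40 and 10.41, double-positive arrays 11.12, 10.85, 10.64 and 11.04, mCherry+ arrays 11.32, 11.31, 11.32, 11.24 and 11.60, and non-fluorescent arrays 11.16 to 11.69 with a median of 11.36. Hair cells lay lowest, double-positive cells next, and the other populations overlapped. The difference between hair and non-fluorescent cells was -0.995 ± 0.17 (adjusted p = 0.00012).

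**Figure D3:**
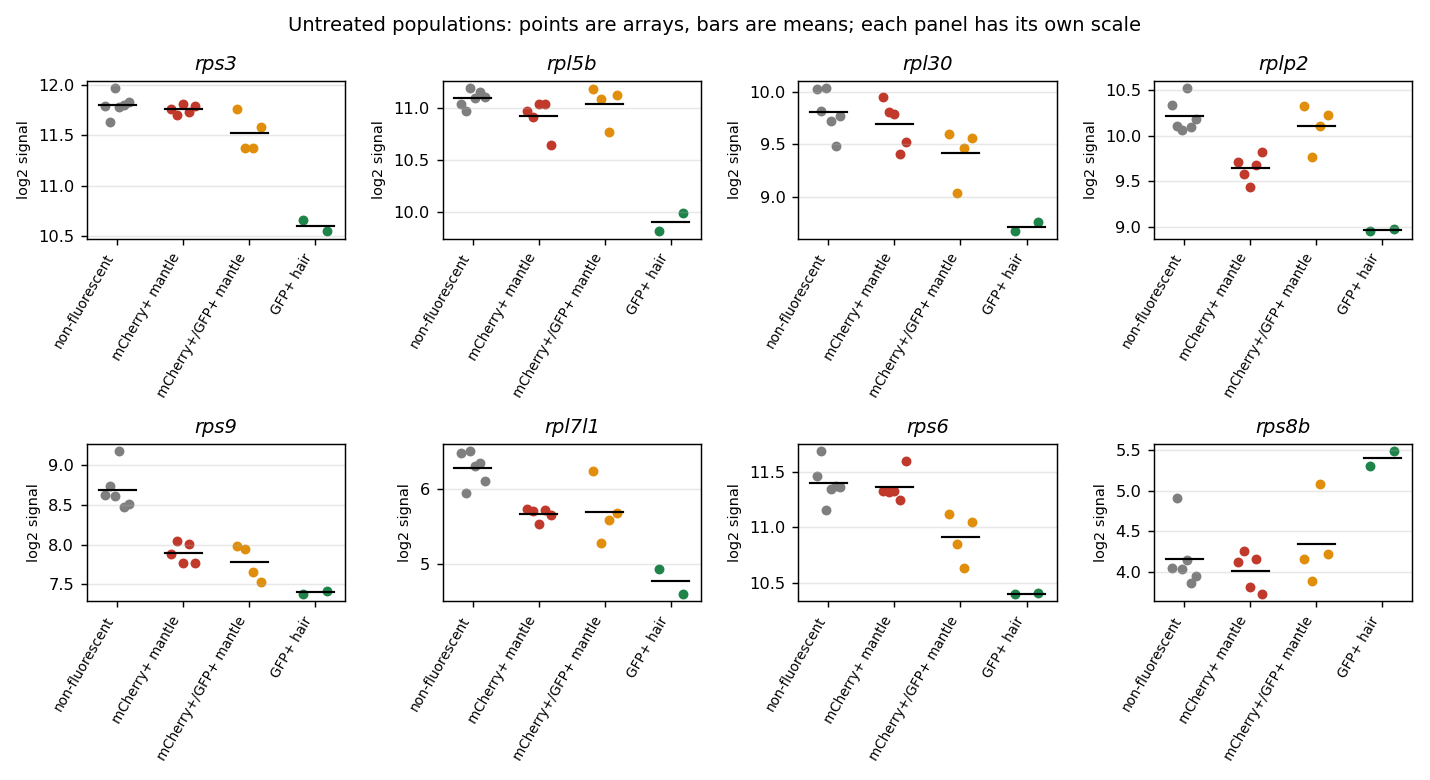
Log2 signal of 8 ribosomal protein genes in the untreated arrays, by population; points are arrays, bars are means, and each panel has its own axis. Hair cells are lowest in all panels but that of rps8b, where their 2 arrays, at 5.31 and 5.48, are the highest, and rps9 is highest in non-fluorescent cells.

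A few genes did not follow the rest. The gene rps8b was higher in hair cells, at 5.31 and 5.48 against 3.87 to 4.91 with a median of 4.05 in non-fluorescent cells. The mCherry+ arrays read 4.13, 4.26, 3.82, 4.16 and 3.73 and the double-positive arrays 4.17, 3.90, 5.08 and 4.23, so that the hair arrays were above all others. The difference from non-fluorescent cells was 1.23 ± 0.28 (adjusted p = 0.0020). The difference from double-positive cells, 1.05, was not called without hair replicate 2 (adjusted p = 0.094). It is the only 1 of the 70 genes with a mean below the median of all genes, 4.90, so its probe set is dim.

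Among genes not called against non-fluorescent cells, rpl15 had the smallest difference, -0.01 ± 0.16 (adjusted p = 0.98), and rpl37 differed by -0.07 (adjusted p = 0.85). The hair arrays of rpl15 read 7.75 and 7.54, inside the range of 7.49 to 7.83 of non-fluorescent cells. The other genes not called were rpl6, rpl13a, rpl38, rpl39, rplp1, rps18 and rps24, with differences between -0.62 and -0.26. For rpl13a the sign against mCherry+ and double-positive cells was not stable, at -0.33 and -0.29 as deposited and 0.10 and 0.09 after quantile normalization.

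Some of the genes are paralogues of each other. The genes rps27.1, rps27.2 and rps27l encode variants of one small-subunit protein, and were lower in hair cells than in non-fluorescent cells by differences of -0.96 ± 0.16, -0.59 ± 0.22 and -0.9995 ± 0.35. The variants rps26 and rps26l differed by -0.62 ± 0.18 and -0.41 ± 0.14. Probes of close paralogues may bind each other's transcripts, so that their separate values are uncertain. Of the 16 genes with more than 1 probe set, all probe sets had the same sign in 16 against non-fluorescent cells and in 15 against each mantle population. Sizes could differ, as for rps19 against double-positive cells, at -0.70 and -0.27. In the comparisons between the other untreated populations, given below, the sign was the same in 12 of the 16. After copper it was the same in 12 to 15 against untreated cells, and in 7 to 13 for the differences between responses.

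Among genes known from inherited ribosomal protein disease or from work on specialised ribosomes, rps19, which is mutated in human Diamond-Blackfan anaemia, was lower in hair cells by -0.80 ± 0.16, -0.79 ± 0.16 and -0.70 ± 0.17 against non-fluorescent, mCherry+ and double-positive cells. The gene rpsa, whose product is a small-subunit protein also described as a laminin receptor, read 10.02 and 9.99 in hair cells and 10.77 to 11.09 in non-fluorescent cells, a difference of -0.96. For rpl38, which in mice is needed for translation of some Hox mRNAs, the difference of -0.62 ± 0.28 from non-fluorescent cells was not called (adjusted p = 0.099), and that of -0.79 ± 0.29 from mCherry+ cells was (adjusted p = 0.040). The genes rps14, rpl3, rps20 and rpl23a were each called lower than in non-fluorescent cells, with differences of -0.46, -0.67, -0.67 and -0.45. Without hair replicate 2 the calls of rps14 and rpl23a in that comparison were lost, as was that of rpl38 against mCherry+ cells. With the block for untreated arrays, those of rpl23a (adjusted p = 0.104) and of rpl38 (adjusted p = 0.199) were lost too. That of rps14 was kept (adjusted p = 0.043).

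Hair cell markers were present in the hair arrays. The mean over 8 of the 9 listed hair cell markers, pou4f3 and myo6b among them, was 9.14 and 9.19 in the hair arrays and 4.00 to 4.93 in the other untreated arrays, and 7 of the 8 were called higher in each comparison. Markers of other cell types differed in the hair arrays too. The mean over 10 pigment cell markers was 6.21 in both hair arrays against 3.42 to 4.71 in the other untreated arrays. Of the 10, 6 were called higher than in non-fluorescent cells and 3 lower. The mean over 8 connective tissue markers was 4.48 to 4.63 in hair cells, 8.83 to 9.29 in non-fluorescent cells, 9.41 to 9.77 in mCherry+ cells and 6.67 to 7.87 in double-positive cells. Against non-fluorescent cells all 8 muscle markers, all 5 ionocyte markers, 6 of 7 leukocyte, 4 of 5 red blood cell and 4 of 6 keratinocyte markers were also lower and 0 of them higher. Of 4 markers of Schwann cells and glia 2 were higher and 2 lower. Of 8 markers of neuromast support and mantle cells, 4 were higher and 2 lower than in non-fluorescent cells, 2 were lower than in mCherry+ cells and all 8 were lower than in double-positive cells. The part of these cell types in the ribosomal protein values was not tested.

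Other genes of protein synthesis were measured beside them. Of 4 other genes listed for the cytosolic ribosome only 1 was measured, rack1, the scaffold on the small subunit. It was lower by -0.52 ± 0.13 than in non-fluorescent cells, by -0.62 ± 0.13 than in mCherry+ and by -0.46 ± 0.14 than in double-positive cells. After quantile normalization its differences were -0.17, -0.15 and -0.05, none called. For the lists that follow, 20.8% of all genes were lower and 15.5% higher in hair than in non-fluorescent cells. Of 15 elongation factors 6 were lower (40%) and 1 higher (6.7%). The exception was eef1a1b, a gene for the factor that brings aminoacyl-tRNA to the ribosome, which was 3.65 ± 0.19 higher (adjusted p = 3.4e-11), while eef2a.2, a gene for the translocation factor, was -1.65 ± 0.25 and eef1g -0.95 ± 0.17.

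Initiation factors were lower in 16 of 47 genes (34%) and higher in 1 (2.1%), with a median of -0.28, beside 20.8% and 15.5% of all genes. They included the eIF3 subunits eif3m, at -1.28 ± 0.18, and eif3g, at -1.32 ± 0.19. In mCherry+ and double-positive mantle cells 36.2% and 42.6% of the 47 were themselves lower than in non-fluorescent cells on the deposited values. There 17.2% and 17.4% of all genes were lower, and 4.3% and 2.1% of the 47 were higher. Of 20 genes whose mammalian mRNAs carry the pyrimidine tract but encode no ribosomal protein, 12 were lower (60%) and 1 was higher (5%), with a median of -0.69. Among them npm1a, a nucleolar chaperone, was -1.37 ± 0.17, naca, which binds nascent chains, -0.94 ± 0.15, and tpt1, a growth-associated protein, -0.68. Some of these genes are also on the lists of elongation and initiation factors. Against mCherry+ and double-positive cells the medians were smaller. They were -0.01 and -0.175 for elongation factors, -0.01 and 0.07 for initiation factors and -0.33 and -0.02 for pyrimidine tract genes. Lower were 17% and 12.8% of initiation factors and 25% and 30% of pyrimidine tract genes. Higher were 10.6% and 12.8% of the former and 10% and 20% of the latter. Of all genes 18% and 18.2% were lower and 17.6% and 17.2% higher.

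On the deposited values, genes that build ribosomes differed from the ribosomal protein genes in their pattern across the populations. Of 51 nucleolar biogenesis genes, 43 were lower in hair than in non-fluorescent cells (84.3%, against 20.8% of all genes) and 0 higher, with a median of -1.01. Against mCherry+ and double-positive mantle cells 4 and 11 were lower (7.8% and 21.6%, against 18% and 18.2% of all genes). Here the mantle cells themselves were low, with 44 of the 51 genes lower in mCherry+ mantle than in non-fluorescent cells on the deposited values (86.3%, against 17.2% of all genes). For fbl, the methyltransferase of ribosomal RNA, hair cells were -1.80 ± 0.22 from non-fluorescent and -0.67 ± 0.22 from mCherry+ cells. For rrp9 the difference from non-fluorescent cells was -1.66 in hair and in mCherry+ cells alike. Of the 70 ribosomal protein genes, 4 were lower in mCherry+ than in non-fluorescent cells on the same scale, where 17.2% of all genes were.

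Genes of the mitochondrial ribosome were seldom lower in hair cells. Of its 67 measured genes, 7 were lower (10.4%, against 20.8% of all genes) and 1 higher (1.5%, against 15.5%) in hair than in non-fluorescent cells. Against mCherry+ cells 9 were higher (13.4%, against 17.6% of all genes) and 1 lower (1.5%, against 18%). Against double-positive cells 16 were higher (23.9%, against 17.2% of all genes) and 0 lower, where 18.2% of all genes were. The mantle cells themselves were low on the deposited values. Of the 67 genes 32 were lower in mCherry+ than in non-fluorescent cells (47.8%, against 17.2% of all genes). In double-positive cells 41 were lower (61.2%, against 17.4%), and 0 were higher in either mantle population. For mrps18a, a small-subunit gene of the mitochondrial ribosome, hair cells were 1.61 ± 0.40 above mCherry+ and 2.22 ± 0.41 above double-positive mantle cells. Comparisons that share the hair arrays or the non-fluorescent arrays are not independent of each other.

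**Figure D4:**
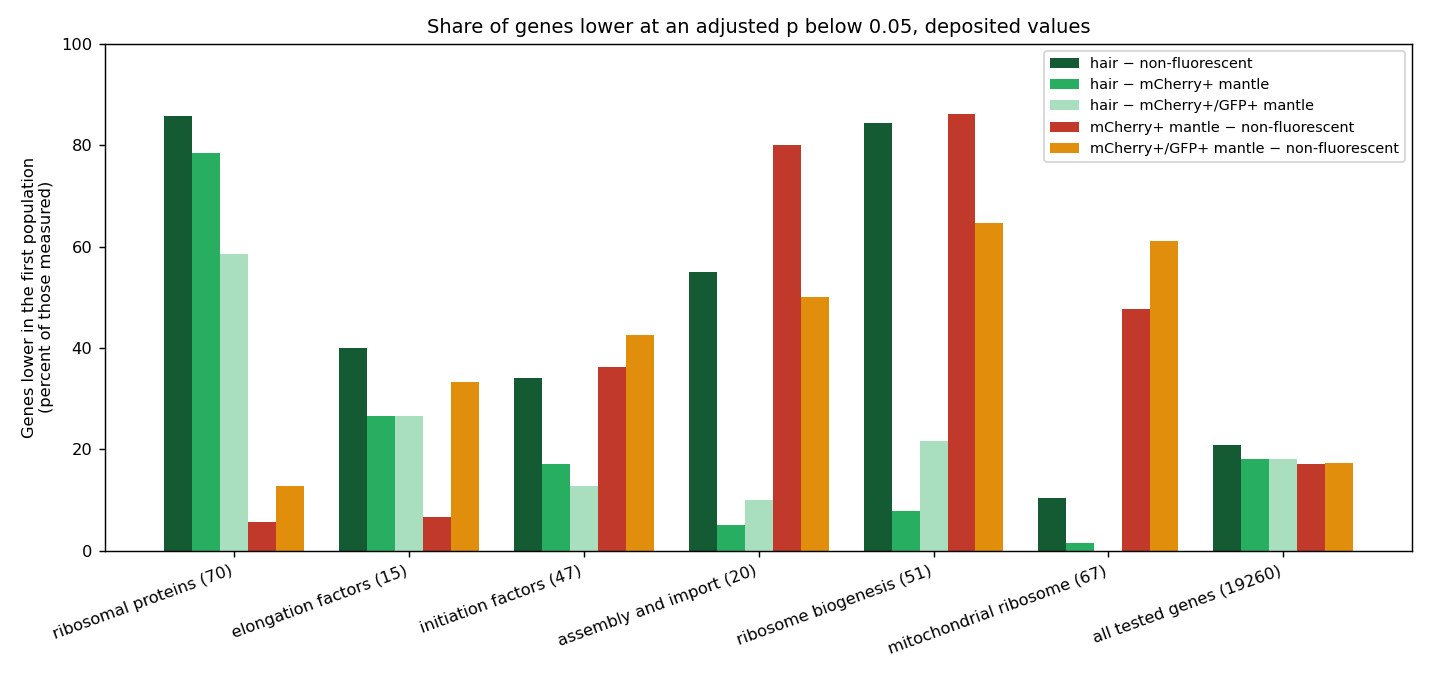
Percentage of the measured genes of each list that were lower in the first population of each comparison (adjusted p below 0.05, deposited values); the bracketed numbers are genes measured. Ribosomal protein genes are mostly lower in hair cells against all populations, whereas ribosome biogenesis genes are mostly lower in hair and in mantle cells against non-fluorescent cells.

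Of 27 regulators of ribosomal protein production, 8 were lower (29.6%, against 20.8% of all genes) and 3 higher (11.1%, against 15.5%) in hair than in non-fluorescent cells, shares not far from those of all genes. The Myc gene mycb was -1.55 ± 0.34 from non-fluorescent, -2.28 ± 0.35 from mCherry+ and -1.28 from double-positive cells, and larp1b, related to the protein that binds the pyrimidine tract, was -0.94 ± 0.15 from non-fluorescent cells. The Myc antagonist mxd1 was 1.14 ± 0.29 and tsc1a, which restrains mTOR, 1.12 ± 0.27 higher than in non-fluorescent cells, while mtor itself differed by 0.03 (adjusted p = 0.93). Of 13 genes of p53 and its targets 3 were higher (23.1%, against 15.5% of all genes) and 4 lower (30.8%, against 20.8%), and bbc3, a cell death gene, was 1.65 ± 0.33 higher. The difference of mdm2 from non-fluorescent cells, 0.34, was not called (adjusted p = 0.35).

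Between the other untreated populations, few ribosomal protein genes differed, save between double-positive and non-fluorescent cells after quantile normalization. Making array medians equal moved the median difference of all genes between mCherry+ mantle and non-fluorescent cells from 0.01 to 0.17. A move of over 0.1 set the scale by rule, although here it took that median away from 0. As deposited, 1 gene was higher and 4 lower in mCherry+ mantle cells (15.1% and 17.2% of all genes). With array medians equal, 2 genes were higher (24.2% of all genes were) and 3 lower (12.7% of all genes), fewer than the background in either direction. Those lower were rps9 (-0.64), rpl7l1 (-0.47 ± 0.15) and rplp2 (-0.42), and they were also lower under the other scalings. Those higher were rps27.2 (0.62) and rplp1 (0.32), and neither was called after quantile normalization. After that scaling 11 genes were lower in mCherry+ than in non-fluorescent cells (15.7%, against 15.7% of all genes). None was higher (17.9% of all genes were), and the median of the 70 genes was -0.15. In rps27.2, mCherry+ replicate 5, at 9.23, stood above the other 4 arrays, which read 8.41 to 8.55, and without it the call on the deposited values was lost (adjusted p = 0.112). A dimmer probe set of rps27.2 did not show it higher in mCherry+ than in non-fluorescent cells. On that probe set hair cells differed by -0.58 from non-fluorescent and -0.43 from mCherry+ cells. On the probe set used these differences were -0.59 and -1.06.

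Double-positive mantle cells differed from non-fluorescent cells, again relative to the array medians, in 1 gene higher and 5 lower (17.8% and 13.6% of all genes). The genes lower were rps9 (-0.80), rpl7l1 (-0.48), rps28 (-0.42), rpl31 (-0.40) and rps6 (-0.37), and all of these were also called as deposited and after quantile normalization. A block of arrays that may share an earlier adjustment was also fitted. It set apart mCherry+ replicates 1 and 2, joined by replicates 5 and 6 of the non-fluorescent cells, and mCherry+ replicates 3 and 4, joined by non-fluorescent replicate 1. The sample titles do not give this grouping, and whether these arrays share an adjustment was not tested. With the block rpl7l1 was not called (adjusted p = 0.056). The gene higher was rplp1 (0.43), which was not called after quantile normalization. Against mCherry+ mantle cells, as deposited, 1 gene was higher and 5 lower in double-positive cells (12.6% and 12.8% of all genes). The stalk gene rplp2 was higher by 0.46 ± 0.14, and rps27.2, rps6 and rpl31 were at -0.63 ± 0.18, -0.45 ± 0.14 and -0.44 ± 0.12, called under all 3 scalings. None of these 4 calls held with that block (adjusted p = 0.239, 0.070, 0.084 and 0.102, in the same order), or with only these groups in the fit (adjusted p = 0.0632, 0.0507, 0.0587 and 0.0504). For rps27.2 the dimmer probe set also showed a smaller gap. On it hair cells differed by -0.43 from mCherry+ and -0.31 from double-positive cells, against -1.06 and -0.43 on the probe set used.

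After copper, the level of most ribosomal protein genes moved little. The copper arrays were imported separately from the untreated ones. Mean signals over all probe sets ran from 4.27 to 4.30 in untreated arrays, 4.45 to 4.48 in treated non-fluorescent arrays and 4.29 to 4.37 in treated mantle arrays, so that import and treatment cannot be told apart. In non-fluorescent cells 12 genes were called higher at 1 h as deposited (10.5% of all genes were), with a median difference of 0.21, beside a median of 0.17 over all genes, and without 1 h replicate 3 the count was 3. Relative to the array medians, the scale used below for these cells, 1 gene was higher and 0 lower at 1 h (2.4% and 2.58% of all genes). At 3 h 5 were higher and 2 lower (10.8% and 8.42% of all genes), at 5 h 3 higher and 2 lower (6.94% and 4.73%), and at 11 h 0 in either direction (2.01% and 1.19%), where 6 had an unadjusted p below 0.05. As deposited 2 were higher at 11 h (7.89% of all genes). These shares lie near or below the background.

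In mCherry+ mantle cells, on the deposited scale, 0 genes were called at 1 h (1.15% of all genes were higher and 0.353% lower), although 21 had an unadjusted p below 0.05 and limma with a trended, robust variance called 3. At 3 h 15 genes were higher and 1 lower (7.99% and 6.95% of all genes), and at 5 h 10 were higher and 1 lower (5.85% and 6.55%). At 11 h 1 gene was higher and 0 lower (3.13% and 0.872%). The counts did not follow the median difference of the 70 genes, which was 0.19, 0.17, 0.17 and 0.11 at 1 h, 3 h, 5 h and 11 h. Over all genes it was 0.06, 0.03, 0.01 and 0.05. Between 1 h and 3 h the median difference of the 70 genes was -0.004. The counts at 3 h and 5 h fell to 2 higher and 5 lower and to 4 higher and 1 lower after quantile normalization (7.97%, 7.89%, 6.82% and 6.91% of all genes, in the same order). The arrays of 3 h and 5 h also carry a mark of an earlier adjustment. The deviations of replicate 4 from its group mean at 3 h and at 5 h mirror each other across genes (r = -1 in both populations). With the other replicates of these times set as a block of their own, 0 genes were called in mantle cells at 3 h and at 5 h. This block left the differences as they were, at 0.76 for rpl38 at 3 h in both fits. Calls lost with it, here and below, thus reflect a less precise estimate. Calls kept with it are likewise no test of that adjustment, since the block moved no difference. Whether the earlier adjustment accounts for the differences was not tested. Leaving out 3 h replicate 2 lowered the count at 3 h to 10 in all, and leaving out untreated replicate 5 lowered that at 5 h to 7.

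The gene rps6 moved the same way in both populations. In non-fluorescent cells it read 11.16 to 11.69 (median 11.36) without copper and 11.30 to 11.69 (median 11.52) at 1 h, then 11.00, 10.96, 10.97 and 10.95 at 3 h, 11.07, 10.92, 10.93 and 11.00 at 5 h, and 11.29, 11.75, 11.70 and 11.54 at 11 h. In mantle cells it read 11.32, 11.31, 11.32, 11.24 and 11.60 without copper, 11.41, 11.29, 11.67 and 11.41 at 1 h, 10.91, 11.19, 11.03 and 11.00 at 3 h, 11.03, 11.00, 10.90 and 11.02 at 5 h, and 11.40, 11.50, 11.27 and 11.25 at 11 h. The arrays of 3 h and 5 h lay below all others in each population.

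Relative to the array medians, rps6 was lower than in untreated non-fluorescent cells by a difference of -0.53 ± 0.11 at 3 h (adjusted p = 0.00089) and of -0.52 ± 0.11 at 5 h (adjusted p = 0.0017). In mantle cells, as deposited, the differences were -0.32 ± 0.11 at 3 h (adjusted p = 0.047) and -0.37 ± 0.11 at 5 h (adjusted p = 0.025). The call in mantle cells at 3 h was lost without any 1 of 7 arrays, with an adjusted p of up to 0.148 without untreated replicate 5, and that at 5 h without untreated replicate 5 (0.089) or 5 h replicate 3 (0.071). Within the treated arrays the difference of 3 h from 1 h was -0.52 ± 0.11 in non-fluorescent and -0.41 ± 0.12 in mantle cells. With the block for the earlier adjustment, which was fitted on the deposited values here and below, the calls against untreated cells were lost in both populations, with an adjusted p of 0.12 and 0.18 in non-fluorescent cells at 3 h and 5 h and of 0.34 and 0.28 in mantle cells. The difference of 3 h from 1 h in non-fluorescent cells was still called with it (adjusted p = 0.046).

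In non-fluorescent cells rpsa was higher at 3 h. It read 10.77 to 11.09 (median 10.99) without copper, 10.80 to 11.47 (median 11.34) at 1 h, 11.70, 11.60, 11.79 and 11.73 at 3 h, 11.19, 11.36, 11.25 and 11.23 at 5 h, and 11.26, 11.29, 11.04 and 11.14 at 11 h. The arrays of 3 h stood above all others. The difference from untreated cells was 0.64 ± 0.12 (adjusted p = 0.00022) relative to the array medians. With the block, which left the deposited difference at 0.74, it was still called (adjusted p = 0.014). In mantle cells rpsa read 11.07, 10.83, 10.79 and 10.72 at 3 h, inside or near its untreated range of 10.55 to 11.00.

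The stalk gene rplp1 rose in non-fluorescent cells at 3 h and 5 h. It read 9.05 to 9.49 without copper, 10.06, 10.34, 9.85 and 9.82 at 3 h and 10.20, 10.07, 10.03 and 10.36 at 5 h, with no overlap. The differences were 0.58 ± 0.13 and 0.72 ± 0.13, and both were called with the block (adjusted p = 0.035 and 0.019). The large-subunit gene rpl15 was higher at the same times, by 0.46 ± 0.14 and 0.57 ± 0.14, but was not called with the block (adjusted p = 0.082 and 0.064).

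At 1 h, rpl37, a large-subunit gene, was the only 1 called in non-fluorescent cells relative to the array medians. It read 6.35 to 7.47 (median 7.11) without copper and 7.58 to 8.49 (median 8.25) at 1 h, with no overlap in these deposited values. Relative to the array medians the groups overlapped, with a difference of 0.83 ± 0.18 (adjusted p = 0.0059). Relative to the array medians, rps9 was lower at 3 h and 5 h, by differences of -0.71 ± 0.23 and -0.84 ± 0.23 (adjusted p = 0.028 and 0.015). Its values at 5 h were 7.95, 8.48, 7.10 and 8.30, the lowest of which is replicate 3. On the deposited values the difference at 3 h was not called (adjusted p = 0.055), and the call at 5 h (adjusted p = 0.029) was lost without that array (adjusted p = 0.229) and with the block (adjusted p = 0.29).

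In mantle cells the genes called higher at both 3 h and 5 h included rps19, rpl38, rpl27a and rpl37. For rps19 the arrays read 11.59, 11.56, 11.39, 11.51 and 11.19 without copper, 12.08, 12.26, 12.13 and 11.66 at 3 h, and 12.29, 11.96, 11.94 and 12.56 at 5 h, above all the untreated arrays. The differences were 0.58 ± 0.14 and 0.74 ± 0.14 (adjusted p = 0.0035 and 0.00048), and with the block the adjusted p was 0.12 and 0.058. For rpl38 they were 0.76 ± 0.21 and 0.83 ± 0.21, for rpl27a 0.70 ± 0.20 and 0.68 ± 0.20, and for rpl37 0.66 ± 0.21 and 0.73 ± 0.21. None of these was called with the block.

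**Figure D5:**
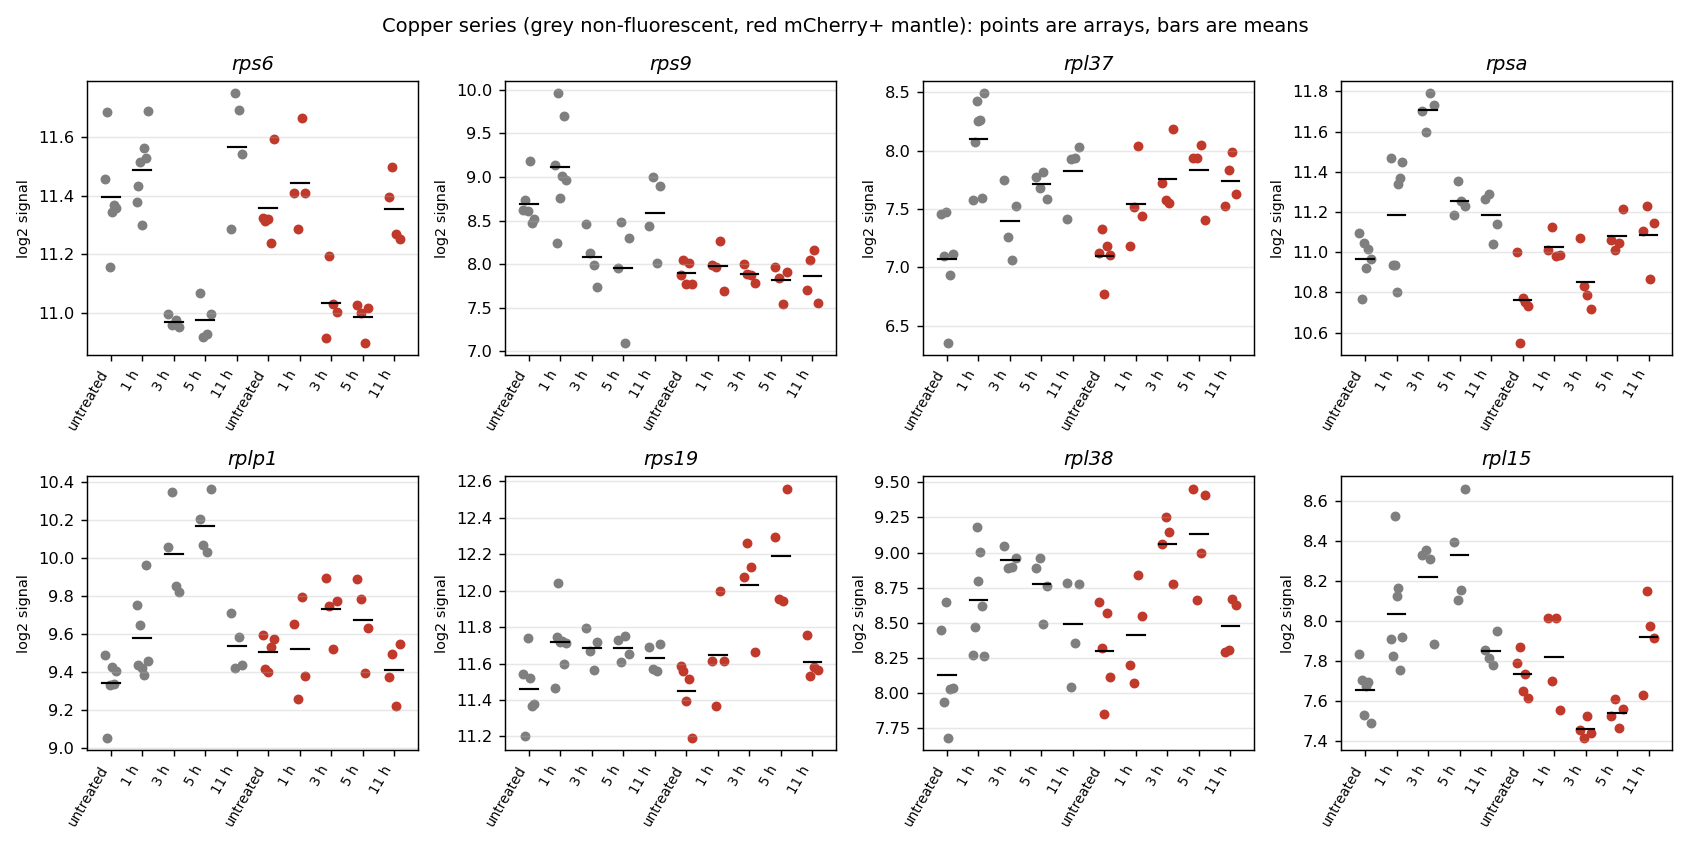
Log2 signal of 8 ribosomal protein genes in untreated cells and 1 h, 3 h, 5 h and 11 h after copper, in non-fluorescent cells (grey) and mCherry+ mantle cells (red); points are arrays, bars are means, and each panel has its own axis. In rps6 the arrays of 3 h and 5 h lie lowest in both populations, and in rpsa the 3 h arrays of non-fluorescent cells, at 11.60 to 11.79, lie highest.

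The responses of the populations were also tested against each other, as the response in mantle cells minus that in non-fluorescent cells. At 1 h, relative to the array medians, and at 11 h, as deposited, 0 genes differed in limma, with 4 at an unadjusted p below 0.05 at each time. Of all genes 0.618% were higher and 0.841% lower at 1 h, and 0.254% and 1.04% at 11 h. At 3 h, as deposited, rpl27a differed by 0.94 ± 0.27 (adjusted p = 0.017), rpl15 by -0.84 ± 0.19 (adjusted p = 0.0032) and rpsa by -0.65 ± 0.17 (adjusted p = 0.011), which makes 1 gene higher and 2 lower (4.74% and 9.47% of all genes). At 5 h, relative to the array medians, rps28 (0.97 ± 0.25) and rpl27a (0.89 ± 0.27) were higher and rpl15 (-0.75 ± 0.20) was lower (1.9% and 2.81% of all genes). For rpl15 the mantle arrays read 7.46, 7.42, 7.53 and 7.44 at 3 h, whereas those of non-fluorescent cells read 8.33, 8.35, 8.31 and 7.89. With the block for the earlier adjustment 0 genes differed at 3 h or 5 h.

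Some of the other translation genes also changed after copper. Of 51 biogenesis genes, 7 were lower at 3 h and 8 at 5 h in non-fluorescent cells relative to the array medians, where 8.42% and 4.73% of all genes were, and 0 higher, while in mantle cells 5 were higher and 1 lower at 3 h (7.99% and 6.95% of all genes). Among the initiation factors 10 of 47 were lower and 2 higher in non-fluorescent cells at 3 h (8.42% and 10.8% of all genes). One of those lower was eif4ea, a cap-binding protein, at -1.72 ± 0.33. In mantle cells eif4ebp3l, which holds back cap-dependent initiation, was 1.36 ± 0.23 higher at 3 h (adjusted p = 0.000105). In the 20 genes with the pyrimidine tract that encode no ribosomal protein, 2 were higher and 1 lower in non-fluorescent cells at 3 h, and 3 and 1 in mantle cells, with the same shares of all genes beside them.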

How the data were processed

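RNA of sorted zebrafish cells was amplified from 1 ng and hybridised to 52 Affymetrix arrays, per the labels' protocols. The deposited values are log2 signals made by the authors with RMA in Partek 6.6, per the submitters' processing notes. The log base was taken from that method and from the range of -1.29 to 15.05. A few samples that did not cluster were left out and the copper arrays were imported separately, per the labels.

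Of 75212 probe sets, 20806 list 1 gene symbol and 855 several. Each of 19260 genes was represented by its brightest single-symbol probe set. Differences were fitted with limma 3.58.1 (R 4.3.3), over 17 untreated arrays or over 46 non-fluorescent and mantle arrays, with Benjamini-Hochberg adjustment over all genes. Values relative to the array medians are given where centring moved the median of all genes by over 0.1. The fit was tested on simulated data. The genes named are those of the fixed families plus, per comparison, up to 6 called genes in each direction by size. The genes, lists and rules were chosen with earlier results of these data known. Replicates' origin is not in the labels, so p-values measure the spread between samples, which may be technical. The number of arrays limits the precision. Figures were drawn with matplotlib 3.10.9. Replicate numbers did not pair the samples. Alternatives were centring, quantile normalization, replicate and adjustment blocks, fits of the compared groups alone, a trended robust variance, probe set means, a filter on dim genes and leaving out each array.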

Additional observations from a re-analysis of the deposited data

Results flagged for a closer look

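Among 220 groups of values from 19 of the ribosomal protein genes and their median, 18 held 1 array that stood apart from the rest of its group, where chance gives about 5 percent. In untreated non-fluorescent cells rps12 was 10.29 in replicate 2 against 10.80 to 10.95 in the others, rplp1 was 9.05 and rps8b 4.91 in that same array, and rps9 was 9.18 in replicate 4. In untreated mCherry+ mantle cells replicate 5 was highest in rps6 (11.595) and in rps27.2 (9.23).

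At 1 h after copper, mantle replicate 3 stood above the others in the median of all 70 genes (10.87 against 10.58 to 10.61), in rps12 (11.52 against 10.62 to 10.70) and in rpl27a (10.80), and mantle replicate 2 was low in rplp2 (9.42 against 10.49 to 10.58). Single arrays of non-fluorescent cells stood apart in rpl30 at 1 h (9.70), in rps3 (11.94) and rpl15 (7.89) at 3 h, in rpl5b (11.24) and rpl10 (6.88) at 5 h, and in rpl37 at 11 h (7.41). Those of mantle cells were rps3 at 3 h (11.81) and rpl10 at 11 h (7.84).

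The response to copper, on the deposited scale, differed between mantle and non-fluorescent cells in rpl15 (-0.84), rpl27a (0.94) and rpsa (-0.65) at 3 h. At 5 h it differed in rpl15 (-0.87), rplp1 (-0.66) and rps28 (0.85). None of these was called with the block for the earlier adjustment.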

How the results depend on the processing

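Counts here are ribosomal protein genes called in either direction on the deposited values. Calls over all 19260 genes are set beside them for the 2 other scalings. For the blocks and the further fits they were not counted, so those counts show only how the calls depend on the fit. With array medians made equal they were 6 for double-positive minus non-fluorescent cells (10 as deposited), 1, 5 and 0 in non-fluorescent cells at 1 h, 5 h and 11 h, 2 in mantle cells at 11 h, 10 for 5 h minus 1 h in non-fluorescent cells and 3 for the response difference at 5 h. Over all genes the calls were 6032, then 959, 2248 and 618, then 665, 4087 and 906, in the same order. After quantile normalization hair cells differed in 22 genes from mCherry+ and 12 from double-positive cells, and these mantle cells in 11 and 19 from non-fluorescent cells. Over all genes the calls in these comparisons were 6865, 6664, 6476 and 6027, in the same order. The 11 and 19 genes were all lower in the mantle cells, as were 3021 and 3033 of all genes. The copper counts then were 1, 11, 5 and 2 in non-fluorescent cells at 1, 3, 5 and 11 h, 7, 5 and 2 in mantle cells at 3, 5 and 11 h, 10 for 5 h minus 1 h in non-fluorescent cells, 3 and 3 for 3 h and 5 h minus 1 h in mantle cells, and 2 for the response difference at 5 h. Over all genes the calls were 841, 3767, 2358 and 770, then 3055, 2644 and 623, then 3718, then 2143 and 1930, then 1192, in the same order. The prevailing direction turned in 8 of these quantile comparisons and in 2 of the centred ones, and the cause was not tested. Among single genes quantile normalization turned rpl13a against mCherry+ (0.0974) and double-positive cells (0.0891) and rps20 against double-positive cells (0.0499).

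Replicate numbers did not pair the samples. With a replicate block the counts were 3 for double-positive minus mCherry+ cells, 9 for non-fluorescent cells at 5 h and 7 for mantle cells at 5 h. With the adjustment block they were 3, 4 and 0 for mCherry+ minus non-fluorescent, double-positive minus non-fluorescent and double-positive minus mCherry+ cells, 7, 2 and 1 for non-fluorescent cells at 1, 3 and 5 h, 0 for mantle cells at 3 h and 5 h, 1 and 1 for 3 h and 5 h minus 1 h in non-fluorescent cells, 0 and 0 in mantle cells, and 0 for both response differences. With only the groups compared in the fit they were 16 for hair minus double-positive, 0 for double-positive minus mCherry+ cells, 1, 9 and 0 for non-fluorescent cells at 1, 5 and 11 h, 5 for mantle cells at 5 h, 4 and 4 for 3 h and 5 h minus 1 h in non-fluorescent and 0 and 0 in mantle cells, and 5 for the response difference at 3 h, whose direction turned. A trended robust variance gave 18 and 10 for double-positive minus non-fluorescent and minus mCherry+ cells, 3 and 3 for mantle cells at 1 h and 11 h, and 10 for their 3 h minus 1 h. Probe set means gave 2 for mantle cells at 11 h, and leaving out dim genes gave 6 for non-fluorescent cells at 1 h.

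Leaving out 1 array at a time gave 38 to 61 for hair minus non-fluorescent, 33 to 54 for hair minus mCherry+ and 13 to 42 for hair minus double-positive cells, the lowest each without hair replicate 2. It gave 3 to 5, 6 to 12 and 3 to 6 for mCherry+ minus non-fluorescent, double-positive minus non-fluorescent and double-positive minus mCherry+ cells. After copper it gave 3 to 13, 8 to 11, 7 to 15 and 1 to 3 in non-fluorescent cells, and 0 to 3, 10 to 15, 7 to 11 and 0 to 1 in mantle cells, at 1, 3, 5 and 11 h. Against 1 h it gave 7 to 10, 5 to 9 and 0 to 1 in non-fluorescent and 2 to 6, 2 to 7 and 0 in mantle cells, and for the response differences 0, 3 to 4, 1 to 3 and 0. Only 2 arrays stand for hair cells, which limits the precision of those comparisons.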
